A study of Mus musculus with 120 samples.

Results

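The genes of the cytosolic ribosomal proteins were followed through mouse gastrulation and through neural differentiation of embryonic stem cells. They were chosen by symbol, as genes of both count tables whose name begins with Rpl or Rps and a number. The 10 Rps6k kinase genes and 6 symbols marked as pseudogenes by -ps were left out. This gave 84 genes of the 23154 in each table. Of these, 73 encode standard subunits (43 of the large 60S subunit and 30 of the small 40S subunit) and are called the core here. The other 11 are Rpl10l, Rpl22l1, Rpl36al, Rpl37rt, Rpl39l, Rpl3l, Rpl7l1, Rps19bp1, Rps27l, Rps27rt and Rps4l, which are paralogs, retrocopies or, for Rps19bp1, a partner protein with a similar name.

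Poly(A) RNA was counted in 28 libraries of a series of 120 samples, and the chromatin libraries were not analysed here. Of these, 18 came from ICR embryos without a stated genetic change, with 2 libraries in each of 9 groups: the epiblast (Epi) and extra-embryonic part (ExE) at 6.5 days post coitum, the pieces labelled A and P and the ExE at 7.0, and the pieces A, AM and P and the ExE at 7.5. The other 10 came from E14/TG2A mouse embryonic stem cells, either wild type (WT) or carrying a CRISPR-Cas9 deletion of an enhancer named Enh9E (KO), undifferentiated (D0) or after 8 days of differentiation to neural progenitors (D8), with 2 WT and 3 KO libraries on each day. No treatment other than the differentiation is given, and the labels do not say whether replicates are separate embryos, cultures or clones, so p-values measure only the spread between these libraries. Embryo and cell libraries were made with different kits and are not compared with each other.

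A ribosome is built from a small subunit that reads the message and a large subunit that joins amino acids, and each subunit holds ribosomal RNA together with a near-fixed set of proteins made in equal numbers. Messages of these proteins typically begin at a C followed by a run of pyrimidines, the terminal oligopyrimidine (TOP) tract, through which mTOR and LARP1 set how much of them is translated, while Myc raises the output of ribosome genes. Several proteins also have a paralog: Rpl10l and Rpl39l are autosomal copies of X-linked Rpl10 and Rpl39 best known from male germ cells, Rpl3l replaces Rpl3 in muscle, Rpl22l1 is a paralog of Rpl22, and Rps4l is a retrocopy of Rps4x that RefSeq lists as a transcribed pseudogene. The first germ layers grow very fast, and mutations in Rps19, Rpl5 or Rpl11 cause Diamond-Blackfan anaemia while a mutation in Rpl38 disturbs the patterning of the mouse skeleton.

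Promoter windows of RefSeq (GRCm38.p6, the assembly of mm10, 250 bases before and 50 after the annotated start) were on hand for 64 of the 84 genes. The 30 bases around the start are shown for core genes beside the paralogs that the results below turn on, on the sense strand, with the pyrimidine tract in capitals where a C followed by at least 4 more C or T began within 5 bases of the start.
Rps6 (chr4:86857353-86857382, minus strand): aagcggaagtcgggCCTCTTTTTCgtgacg
Rpl38 (chr11:114668565-114668594, plus strand): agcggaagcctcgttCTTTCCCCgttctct
Rps15a (chr7:118116133-118116162, minus strand): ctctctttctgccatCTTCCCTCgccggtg
Rpl39 (chrX:37085208-37085237, minus strand): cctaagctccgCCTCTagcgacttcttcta
Rpl39l (chr16:10170213-10170242, plus strand): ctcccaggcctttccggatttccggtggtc
Rpl10 (chrX:74270801-74270830, plus strand): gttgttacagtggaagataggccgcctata
Rpl10l (chr12:66284387-66284416, minus strand): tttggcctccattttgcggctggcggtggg
Rpl3l (chr17:24727811-24727840, plus strand): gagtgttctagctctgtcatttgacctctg
Rpl7l1 (chr17:46782642-46782671, minus strand): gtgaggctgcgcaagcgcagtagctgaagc
Rps27l (chr9:66946071-66946100, plus strand): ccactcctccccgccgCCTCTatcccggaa
Rpl27 (chr11:101442230-101442259, plus strand): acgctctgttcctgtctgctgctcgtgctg
Rps2 (chr17:24720048-24720077, plus strand): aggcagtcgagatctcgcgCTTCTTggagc
The tract stands at the start of Rps6, Rpl38, Rps15a, Rpl39, Rps27l and Rps2 and was not found by this search at the annotated starts of Rpl10l, Rpl39l, Rpl3l, Rpl7l1, Rpl10 and Rpl27.

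Over the first listed window of each gene, 25 of 54 core genes held the tract (46.3%), against 3 of 10 genes outside the core and 18.5% of the windows of all 27025 genes. CCGGAA, the core letters bound by ETS factors, stood on either strand in 27 of the 54 core windows (50%) and in 15.2% of all windows. AAGATGG, the letters of YY1 sites, stood on either strand in 8 core windows (14.8%) against 6.48%, and on its reverse strand (CCATCTT) it can overlap the tract, as at Rps15a. TATAA stood in 14 core windows (25.9%) and in 25.5% of all. A match here describes the letters of the window only.

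The 100 bases upstream of the start are shown for Rpl27, whose response to differentiation differed between the genotypes, and for the falling paralogs Rpl39l and Rpl10l, with CCGGAA and AAGATGG of either strand in capitals.
Rpl27 (chr11:101442145-101442244, plus strand): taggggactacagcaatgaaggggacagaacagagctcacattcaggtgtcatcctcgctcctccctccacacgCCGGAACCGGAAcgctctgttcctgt
Rpl39l (chr16:10170128-10170227, plus strand): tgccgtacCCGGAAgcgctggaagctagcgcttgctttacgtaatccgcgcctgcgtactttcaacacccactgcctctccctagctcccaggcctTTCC
Rpl10l (chr12:66284402-66284501, minus strand): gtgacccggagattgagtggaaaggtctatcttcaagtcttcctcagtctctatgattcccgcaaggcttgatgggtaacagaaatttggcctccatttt
The stretch of Rpl27 holds CCGGAA back to back, close to the start. That of Rpl39l holds a copy as well as the first letters of a reverse match that runs past the start, and neither motif is in that of Rpl10l.

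Total counts per library ran from 5145033 to 17138732 in embryos and from 5962176 to 13182032 in cells. The labels name no gene controlled by the deleted enhancer, so no transcript was used to check the deletion. The ExE labels fit their 8 markers, which summed to 390 to 841 CPM in the 6 ExE libraries and 46.1 to 256 CPM in the 12 embryonic ones. CPM are counts scaled to a common library total, after TMM scaling, edgeR's correction for composition. The 5 decidua markers stayed between 1.27 and 7.92 CPM in every embryo library. Visceral endoderm markers were not confined to ExE: 8 of them summed to 3250 to 5590 CPM in Epi and 5210 to 7450 CPM in E6.5 ExE. At E7.5 they summed to 16.9 to 575 CPM in A, 1330 to 7110 CPM in AM and 570 to 6490 CPM in P. Their part in the comparisons below was not tested. The core genes Rpl26, Rpl30, Rpl34 and Rps27 and the retrocopy Rps27rt had almost no counts in any library: Rpl26 and Rps27rt had 0, Rpl30 had 116 counts over the 18 embryo libraries and 0 in cells, and Rpl34 and Rps27 never passed 24 counts in a library. How reads were counted is not given in the sources used here, and many of these genes have near-identical processed copies in the genome, so reads shared with copies may be missing from these genes and from others. The filter on low counts left 82 genes in embryos (without Rpl26 and Rps27rt) and 80 in cells (without Rpl26, Rpl30, Rpl37rt and Rps27rt).

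The 84 genes together took 5.81 to 12.8% of all counts in embryo libraries. At E6.5 the Epi libraries stood at 10.1 and 11.5% and the ExE libraries at 9.59 and 10.2%. At E7.0 A stood at 7.60 and 11.8%, P at 6.90 and 11.01% and ExE at 7.17 and 11.2%, so the replicates of each group lay farther apart than the groups. At E7.5 A stood at 6.57 and 7.69%, AM at 5.81 and 8.08%, P at 7.18 and 12.8% and ExE at 10.1 and 9.58%. Replicate 2 was the higher library in each E7.0 group and also had fewer counts there, and the part of depth in this gap was not tested.

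In cells the undifferentiated libraries lay close together, at 7.68 and 8.32% in WT and 7.60, 7.64 and 7.16% in KO. After 8 days WT stayed at 8.10 and 7.76%, while KO stood at 10.2, 15.4 and 10.3%. All 3 differentiated KO libraries were thus above the 7 others, and replicate 2 stood apart even from its own group. In that library 73 of the 80 tested genes had their highest level of the 10 cell libraries (91.2%, against 17.6% of all genes). In embryos E7.5 P replicate 2 held the highest level of 59 of 82 genes (72.0%, against 5.34% of all genes), with the lowest TMM factor, 0.659.

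**Figure D1:**
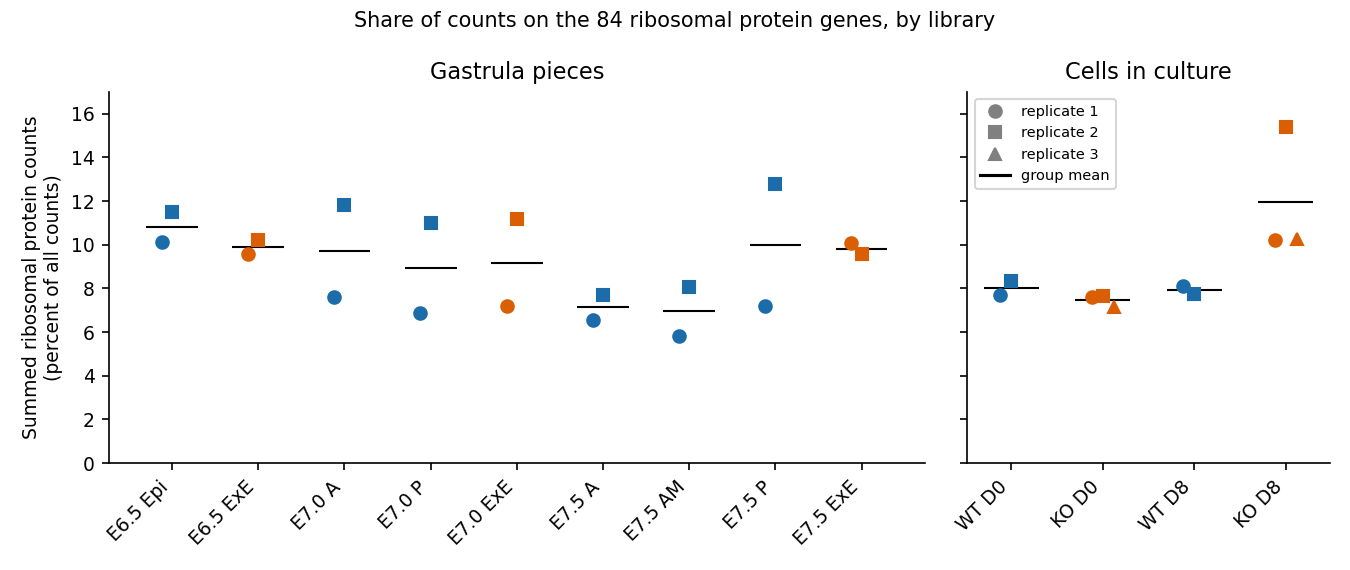
Summed counts of the 84 ribosomal protein genes as a percent of all counts (y axis) in each library, by group (x axis), with ExE and KO in orange, other groups in blue, and a line at the group mean. The 3 KO libraries at D8 lie between 10.2 and 15.4%, above every other cell library, and the E7.0 replicates lie far apart.

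The balance of the subunits moved little between the cell groups, with mean ratios of summed Rpl to summed Rps counts from 1.375 to 1.404. Single libraries ran from 1.16 to 1.53 in embryos and from 1.27 to 1.48 in cells. WT D8 stood at 1.38 in both libraries and WT D0 at 1.36 and 1.40, while KO D8 stood at 1.48, 1.27 and 1.38. Replicates of an embryo group lay as far apart as 1.245 and 1.533 (E7.5 AM). In embryos the ratio was higher in replicate 2 than in replicate 1 in all 9 groups. The level of Rps2 was lower in replicate 2 in each of them, such as 3340 and 1220 CPM in E7.5 AM. Its part in the ratio was not tested. The composition within the set was also steady between group means. Among 69 core genes with at least 0.1% of the set's counts, the mean share varied over the 4 cell groups with a median coefficient of variation of 0.107. None of them changed its mean share by 2-fold or more between the cell groups. Over the 9 embryo groups the median was 0.133, and 62 of 69 stayed under 2-fold. These means hide differences between embryo replicates. In E7.0 A, Rps2 held 84577 of the 1015149 counts of the set in replicate 1 and 22466 of 1007651 in replicate 2. Among all genes with that share of the set, Rps4l varied most in both tables, from 0.0573% of the set in WT D8 to 0.998% in KO D0 and from 0.0737% in E7.5 P to 0.299% in E6.5 ExE. Of the core genes, Rps2 and Rps24 varied most in cells, with coefficients of 0.282 and 0.237, and Rps12 and Rps28 in embryos, with 0.370 and 0.314. Rps2, Rpl4 and Rpl5 took the most counts per library in embryos and Rps2, Rpl3 and Rpl4 in cells, and Rps21, Rpl22 and Rpl28 the fewest of the well-covered core genes in embryos; counts are not corrected for length, so this order is not one of expression.

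Between D0 and D8, 4 paralogs fell in both genotypes, and 3 of them were also lower in the E7.5 embryo than in the E6.5 epiblast. The change in WT and the change in KO rest on separate libraries. Rps4l stood at 744 and 742 CPM in WT D0 and at 821, 723 and 745 CPM in KO D0. At D8 it stood at 30.2 and 52.0 CPM in WT and at 55.9, 87.1 and 72.9 CPM in KO. Every D8 library was far below every D0 library, and the fall was -4.17 ± 0.28 (log2 fold change ± SE, adjusted p = 8.04e-07, edgeR quasi-likelihood test with Benjamini-Hochberg adjustment) in WT and -3.41 ± 0.22 (adjusted p = 3.41e-07) in KO. Its X-linked parent Rps4x, a protein of the small subunit, stood at 1260 and 1560 CPM in WT D0 and 1380 and 1370 CPM in WT D8, a difference of -0.03 that did not pass. Rps4l therefore made up 34.6 ± 3.4% (SD, n = 2) of the counts of the pair in WT D0 and 2.89 ± 1.07% in WT D8. Since the sequences are close copies, the split of reads within the pair is uncertain.

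Rpl10l, the autosomal copy of Rpl10, stood at 68.2 and 52.5 CPM in WT D0 and at 56.8, 37.6 and 33.1 CPM in KO D0. In WT D8 it had 0 and 9 counts (0 and 1.02 CPM), and in KO D8 1.47, 0.699 and 0.0998 CPM. The D0 and D8 levels did not overlap in either genotype, with a fall of -6.68 ± 0.71 in WT (adjusted p = 1.47e-05, edgeR) and -5.80 ± 0.54 in KO (adjusted p = 4.11e-06). The sizes rest on few counts at D8 and are rough. Rpl10 itself stood at 1210 and 1330 CPM in WT D0 and at 1100 and 987 CPM in WT D8, a difference of -0.28 that did not pass.

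Rpl39l, the autosomal copy of Rpl39, stood at 19.5 and 17.2 CPM in WT D0 and at 17.4, 5.76 and 5.30 CPM in KO D0, where replicate 1 was the high one. It fell to 0.152 and 1.13 CPM in WT D8 (-4.70 ± 0.79, adjusted p = 0.000420, edgeR) and had 2, 0 and 2 counts in KO D8 (-5.96 ± 0.80, adjusted p = 6.21e-05). Again no D8 library reached a D0 library. Rpl3l, the paralog of Rpl3 used in muscle, stood at 3.18 and 4.34 CPM in WT D0 and 1.06 and 1.25 CPM in WT D8 (-1.68 ± 0.48, adjusted p = 0.0108). In KO it stood at 4.16, 5.42 and 4.77 CPM at D0 and at 1.37, 0.699 and 0.698 CPM at D8 (-2.37 ± 0.39, adjusted p = 0.000269). Its counts were low throughout, with 62 in the richest cell library.

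**Figure D2:**
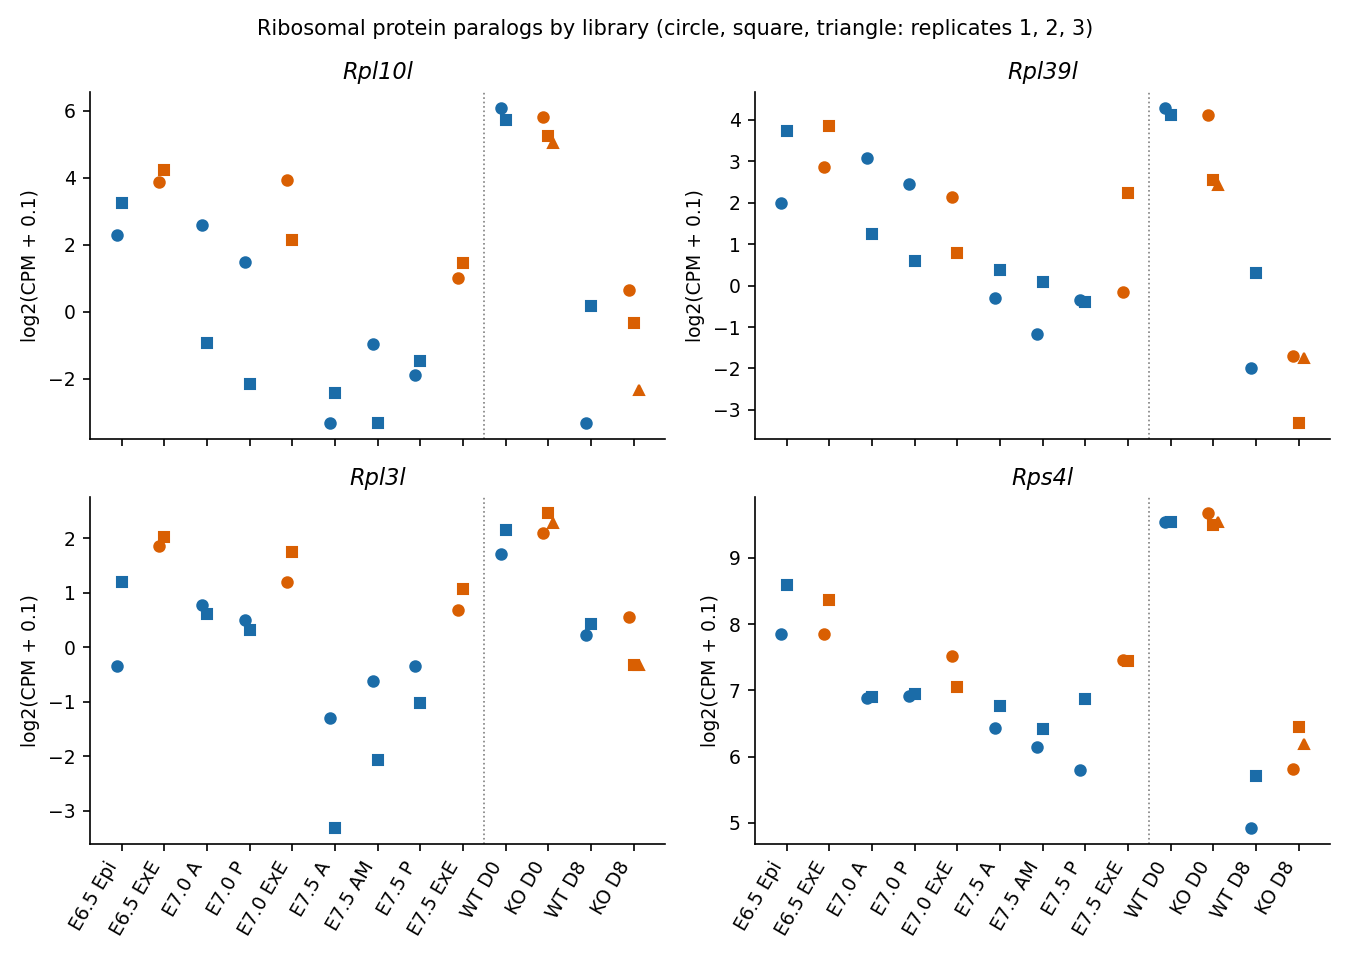
Levels of Rpl10l, Rpl39l, Rpl3l and Rps4l as log2 of CPM plus 0.1 (y axis) in each library, by group (x axis, embryo groups left of the dotted line and cell groups right of it), with ExE and KO in orange. In every panel the D8 points lie below all D0 points, and Rps4l is lower in each piece of the E7.5 embryo than in the E6.5 epiblast.

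In the embryo Rpl10l, Rps4l and Rpl39l were lower in the E7.5 pieces than in the E6.5 epiblast. Rpl10l stood at 4.79 and 9.41 CPM in Epi, at 0 and 0.0854 CPM in E7.5 A, at 0.411 and 0 CPM in AM and at 0.173 and 0.262 CPM in P. The E7.5 pieces, with 0 to 6 counts a library, were below both Epi libraries, and the fitted change was -5.80 ± 0.95 (adjusted p = 0.00411, edgeR). Rps4l stood at 232 and 387 CPM in Epi, at 86.5 and 109 CPM in A, at 70.7 and 85.4 CPM in AM and at 55.5 and 117 CPM in P (-1.83 ± 0.26, adjusted p = 0.00158). Here too no E7.5 library reached Epi. Rpl39l stood at 3.88 and 13.1 CPM in Epi and between 0.343 and 1.19 CPM in the 6 libraries of the E7.5 pieces (-3.49 ± 0.68, adjusted p = 0.0113). Rpl3l, at 0.684 and 2.18 CPM in Epi and between 0 and 0.690 CPM in these 6 libraries, did not pass. At E7.0 the pieces spanned both ranges for Rpl10l only. It stood at 5.93 and 0.425 CPM in A and 2.70 and 0.127 CPM in P, and replicate 1 was the higher library in each. Rps4l stood at 118 and 119 CPM in E7.0 A and 121 and 123 CPM in E7.0 P, below Epi and just above the E7.5 pieces. Rpl39l stood at 8.36 and 2.27 CPM in E7.0 A and 5.34 and 1.40 CPM in E7.0 P, above all E7.5 pieces. These 3 genes were all that was called in the set between E7.5 pieces and Epi, with 0 higher and 3 lower of 82 (background 1.07% of all genes higher and 1.56% lower), and none was called without Epi replicate 2.

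The core genes of the E7.5 pieces were also lower than in Epi, by a median of -0.67 on the log2 scale with all 72 tested core genes negative, beside 0.01 for all 14403 genes. Over the whole set the median was -0.68, or -1.05 without E7.5 P replicate 2. With total counts alone the median of the core was -0.39 and that of all genes 0.37. No core gene passed, and 5 of 82 genes had all E7.5 libraries below both Epi libraries (background 7.87%). Rps19, a protein of the small subunit, stood at 2080 and 2640 CPM in Epi, at 843 and 1140 CPM in A, at 652 and 1510 CPM in AM and at 922 and 3680 CPM in P. The 2 libraries of P lay on either side of Epi, and the difference of -0.80 did not pass. In bulk samples such as these, fewer cells of a type and less RNA per cell cannot be told apart.

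Differentiation of WT cells left the core genes near their D0 level. Of 80 genes tested, 0 rose and 10 fell (background 29.4% higher and 27.3% lower), and 7 of the 10 were among the 9 tested genes outside the core. The median change of the core was -0.18, against 0.02 for all genes. Scaling by total counts alone gave 1 higher and 8 lower, moved the median of all genes by 0.23 and put the median of the 80 genes at -0.01 in place of -0.24. Of the 80, 53 had both D8 libraries below both D0 libraries (background 40.7%). The count was 6 without WT D8 replicate 1 and also 6 without WT D0 replicate 2.

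The 3 core genes that fell were Rps2, Rpl8 and Rpl12. Rps2, a protein of the small subunit near the message entry site, stood at 4440 and 4220 CPM in D0 and 2320 and 2330 CPM in D8 (-0.90 ± 0.23, adjusted p = 0.00530, edgeR). Rpl8, which lies near the catalytic centre of the large subunit, stood at 2490 and 2660 CPM in D0 and 1680 and 1630 CPM in D8 (-0.64 ± 0.23, adjusted p = 0.0336). Rpl12, a protein of the stalk base of the large subunit, stood at 1590 and 1630 CPM in D0 and 1070 and 1030 CPM in D8 (-0.62 ± 0.24, adjusted p = 0.0441). Replicates lay close together in each case and the days did not overlap.

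Outside the core, besides the 4 paralogs, 3 more genes fell. Rpl7l1, a paralog of Rpl7 that acts in the assembly of the large subunit, stood at 346 and 388 CPM in D0 and 178 and 185 CPM in D8 (-1.02 ± 0.14, adjusted p = 8.65e-05, edgeR). Rpl36al, the paralog of X-linked Rpl36a, stood at 370 and 381 CPM in D0 and 181 and 191 CPM in D8 (-1.01 ± 0.36, adjusted p = 0.0294). Rps19bp1, which binds Rps19 and is no subunit of the ribosome, stood at 56.7 and 66.1 CPM in D0 and 30.7 and 33.5 CPM in D8 (-0.93 ± 0.20, adjusted p = 0.00222). For each of the 3, both D8 libraries stood close together and below both D0 libraries. Rps27l, a paralog of Rps27 induced by p53, stood at 202 and 239 CPM in D0 and 157 and 144 CPM in D8, and Rpl22l1 at 125 and 109 CPM and 106 and 129 CPM, and neither passed. Of the X-linked core genes, Rpl39 (0.21) and Rpl36a (-0.28) did not pass, nor did the disease genes Rps19 (0.03), Rpl5 (0.12), Rpl11 (0.07) and Rpl38 (0.03), in log2 fold change.

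In KO cells the core genes rose over the same 8 days. Of 80 genes 61 rose and 4 fell (background 33.4% higher and 31.0% lower), and the median change of the core was 0.69 with an interquartile range of 0.53 to 0.94, beside 0.05 for all genes. Of the core, 59 of 71 rose and none fell, and the 4 that fell in the set were the paralogs Rpl10l, Rpl39l, Rpl3l and Rps4l, called lower in WT as well. The large and small subunits had similar medians, 0.60 and 0.72. Without KO D8 replicate 2, 56 rose and 6 fell, and the median of the 80 genes was 0.37 in place of 0.65. Over the other leave-one-out fits the genes that rose numbered 42 to 68.

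Rpl41, the smallest protein of the ribosome, stood at 1410, 1370 and 1260 CPM in KO D0 and at 2210, 5300 and 2370 CPM in KO D8 (1.29 ± 0.28, adjusted p = 0.00185, edgeR). Rpl37a, a zinc-binding protein of the large subunit, stood at 629, 663 and 576 CPM in D0 and at 807, 2740 and 989 CPM in D8 (1.28 ± 0.36, adjusted p = 0.00858). Replicate 2 was highest by far in both genes, and the other two D8 libraries were still above all 3 at D0. Rpl38 stood at 292, 310 and 288 CPM in D0 and at 482, 1040 and 480 CPM in D8 (1.17 ± 0.26, adjusted p = 0.00199). The rise was larger than the spread at D0 for each of the 3 genes.

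Of the 2 genes outside the core that rose, Rpl22l1 had the largest rise of the whole set in KO. It stood at 125, 111 and 87.2 CPM in KO D0 and at 125, 507 and 232 CPM in KO D8 (1.42 ± 0.38, adjusted p = 0.00662, edgeR). Replicate 1 at D8 was level with the highest D0 library, so the groups overlapped and the fold rests on the other two libraries. Rps27l rose by 0.76, with 181, 204 and 185 CPM in D0 and 227, 435 and 301 CPM in D8. Rpl22 itself rose without overlap, from 423, 435 and 396 CPM to 626, 1110 and 614 CPM (0.91 on the log2 scale). Rps19 stood at 620, 715 and 628 CPM in D0 and 981, 1600 and 1010 CPM in D8, a rise of 0.87. Rpl5 rose by 0.82 and Rpl11 by 1.11, and among the X-linked genes Rps4x rose by 1.06, Rpl39 by 1.08, Rpl36a by 1.15 and Rpl10 by 0.56.

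Not every core gene was called, although 69 of the 71 tested core genes had a positive change. Rps2 stood at 4100, 4140 and 3830 CPM in KO D0 and at 2980, 4900 and 3150 CPM in KO D8, so 2 of 3 libraries were lower and replicate 2 higher, and the change of -0.13 did not pass. Rpl8 (0.11), Rpl4 (0.16), Rpl28 (0.24) and Rpl12 (0.39) did not pass either. Rpl13a, whose protein also silences messages in inflammation, had a value of 0.48 that did not pass, while Rpl7 rose by 0.86.

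**Figure D3:**
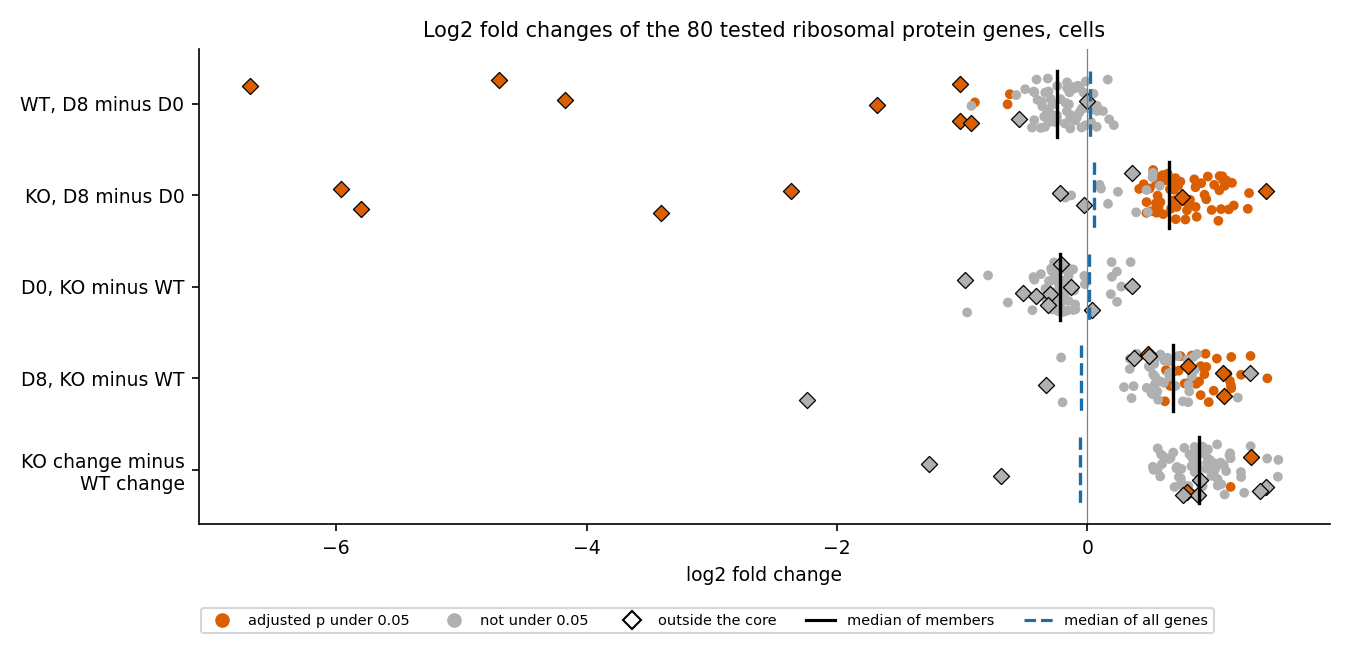
Log2 fold changes (x axis) of the 80 tested ribosomal protein genes in the 5 comparisons of the cell line (y axis), with orange points at an adjusted p under 0.05, diamonds for genes outside the core, a black line at the median of the 80 genes and a dashed blue line at that of all genes. The core lies right of all genes in KO at D8 (median of the 80 genes 0.65 against D0 and 0.68 against WT D8), and the 4 falling paralogs lie at the left in both genotypes.

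Before differentiation no gene of the set was called between the genotypes: 0 were called higher or lower by edgeR (background 0.157% and 0.0889%), 4 had an unadjusted p under 0.05, and DESeq2 called 0. The median difference, KO minus WT, was -0.22, beside 0.01 for all genes, and 55 of the 80 genes had all 3 KO libraries below both WT libraries (background 21.9% of all genes). The KO libraries were thus lower in most of the set at D0, without a call in any gene.

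At D8 the KO libraries were the higher ones. Of 80 genes 33 were higher in KO and 0 lower (background 10.1% and 10.4%), 72 had every KO library above both WT libraries (background 21.4%), and the median was 0.68 against -0.06 for all genes. The comparison shares its KO libraries with the rise in KO described above. Without KO D8 replicate 2, 72 genes did not overlap (background 24.8%), 42 were called and the median of the 80 genes was 0.38. The count of calls was 73 without KO D8 replicate 1 and 29 without KO D8 replicate 3. Leaving out a WT D8 library leaves 1 in that group. The median of the 80 genes was 0.71 without WT D8 replicate 1 and 0.68 without WT D8 replicate 2. DESeq2 called 57 higher and 0 lower (background 12.4% and 12.6%).

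Rps24, a small-subunit protein and Diamond-Blackfan gene, stood at 908 and 936 CPM in WT D8 and at 1560, 4120 and 1810 CPM in KO D8 (1.44 ± 0.34, adjusted p = 0.0152, edgeR). Rpl32 stood at 949 and 863 CPM in WT D8 and at 1870, 2990 and 1840 CPM in KO D8 (1.30 ± 0.22, adjusted p = 0.00358). Rpl19 stood at 1150 and 1080 CPM in WT D8 and at 2130, 3610 and 2100 CPM in KO D8 (1.23 ± 0.23, adjusted p = 0.00558). In each of these 3 genes the lowest KO library was above the highest WT library. They lie on chromosomes 14, 6 and 11, where the medians of all genes were raised as well (0.42, 0.37 and 0.16). At D0 Rps24 already stood at 1330, 1290 and 1230 CPM in KO against 1020 and 1010 CPM in WT. Rpl19 was also higher in KO D0 without overlap, and Rpl32 overlapped there. At D8 Rpl23a (1.15, also on chromosome 11), Rps12 (1.15), Rpl7 (1.14) and Rpl11 (0.78) were higher as well, all on the log2 scale, and so was Rpl10, by 0.54.

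Outside the core 4 genes were higher in KO D8. Rps4l stood at 55.9, 87.1 and 72.9 CPM against 30.2 and 52.0 CPM (0.80 ± 0.24, adjusted p = 0.0352, edgeR), although it had fallen steeply in both genotypes. Rpl7l1 stood at 257, 261 and 241 CPM against 178 and 185 CPM (0.48 ± 0.13, adjusted p = 0.0225), with replicate 2 no higher than the rest. Rps27l stood at 227, 435 and 301 CPM against 157 and 144 CPM (1.09 ± 0.23, adjusted p = 0.00920) and Rpl36al at 233, 636 and 310 CPM against 181 and 191 CPM (1.08 ± 0.33, adjusted p = 0.0418). In none of these 4 did a WT library reach a KO library. Rpl22l1 (1.30) and Rps19bp1 (0.49) did not pass, nor did Rpl10l (0.37), Rpl3l (-0.33) and Rpl39l (-2.24), whose counts were few at D8.

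The change over 8 days differed between the genotypes in 3 genes by the edgeR test. The difference of the changes, KO minus WT, was called higher for Rpl27, Rpl7l1 and Rps27l and lower for 0 (background 2.16% higher and 3.10% lower), and its median was 0.89 against -0.06 for all genes, with all 71 core genes positive. Rpl27, a large-subunit protein, stood at 846 and 1000 CPM in WT D0, 687 and 685 CPM in WT D8, 942, 862 and 919 CPM in KO D0 and 1260, 1910 and 1290 CPM in KO D8, a difference of 1.14 ± 0.27 (adjusted p = 0.0365, edgeR). Both WT D8 libraries were below both of WT D0, and all 3 of KO D8 were above all 3 of KO D0. For Rpl7l1 the difference was 0.80 ± 0.18 (adjusted p = 0.0302), from a fall in WT and little change in KO, and for Rps27l it was 1.30 ± 0.32 (adjusted p = 0.0397). An unadjusted p under 0.05 was reached by 74 of the 80, and DESeq2 called 35 higher and 0 lower (background 6.86% and 6.88%). The count was 73 without KO D8 replicate 1, 55 without KO D8 replicate 2 and 0 without any other of the 10 libraries.

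Some markers of cell types also differed at D8. All 7 markers of neural progenitors and neurons were at 1 CPM or more in both genotypes, and they summed to 1500 and 1690 CPM in WT D8 and to 497 to 759 CPM in KO D8. Not all of them differed: Sox1 stood at 60.6 to 184 CPM in WT D8 and 127 to 138 CPM in KO D8 and Pax6 at 71.8 to 151 and 102 to 149 CPM, while the neuronal tubulin gene Tubb3 stood at 542 to 735 and 86.9 to 219 CPM. Of 5 endoderm markers 4 were at 1 CPM or more in each genotype, and the 5 summed to 87.8 and 92.8 CPM in WT D8 and to 356 to 781 CPM in KO D8. The 6 markers of undifferentiated stem cells summed to 41.6 to 77.3 CPM in WT D8 and to 121 to 172 CPM in KO D8. They had summed to 4090 to 4410 CPM in WT D0 and 4070 to 4390 CPM in KO D0. Of these markers, Zfp42 overlapped at D8, at 5.01 to 13.8 CPM in WT and 7.68 to 28.3 CPM in KO. The part of all these markers in the higher levels of the ribosomal protein genes was not tested. When library sizes were set to the summed counts of the 84 genes, so that only departures from the rest of the set count, 6 rose and 9 fell in KO between the days, 3 were higher in KO at D8, and 0 differed in their change between the genotypes.

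The difference between the genotypes varied by chromosome. Over all genes the median of KO minus WT at D0 was 0.45 on chromosome 14, 0.29 on chromosome 6 and 0.19 on chromosome 11, and at D8 0.42, 0.37 and 0.16, while at D8 every other chromosome lay between -0.16 and -0.002. The 10 tested genes of the set on these 3 chromosomes are Rpl15 and Rps24 on 14, Rpl32 and Rps4l on 6, and Rpl19, Rpl23, Rpl23a, Rpl27, Rpl38 and Rps27a on 11. Of the 10, 9 were called higher at D8, beside 33 of 80 in the whole set. The share of all genes called on these 3 chromosomes was not counted, so the 9 are not read as particular to the set. Rpl15, a large-subunit protein, was higher on both days: it stood at 1720, 1630 and 1570 CPM in KO D0 against 1330 and 1450 CPM in WT D0, and at 1950, 2550 and 2030 CPM in KO D8 against 1110 and 1060 CPM in WT D8 (1.01 ± 0.16, adjusted p = 0.00281, edgeR).

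At D8 the median of the set was above 0 on each of the 19 chromosomes that hold its genes, such as 0.66 for the 13 genes of chromosome 7 (Rps19, Rpl13a, Rps3 and others), where all genes had a median of -0.16. At D0 the 13 genes of chromosome 7 had a median of -0.23. The labels do not say how many KO clones were used, so the deletion cannot be told apart from other differences of the line.

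**Figure D4:**
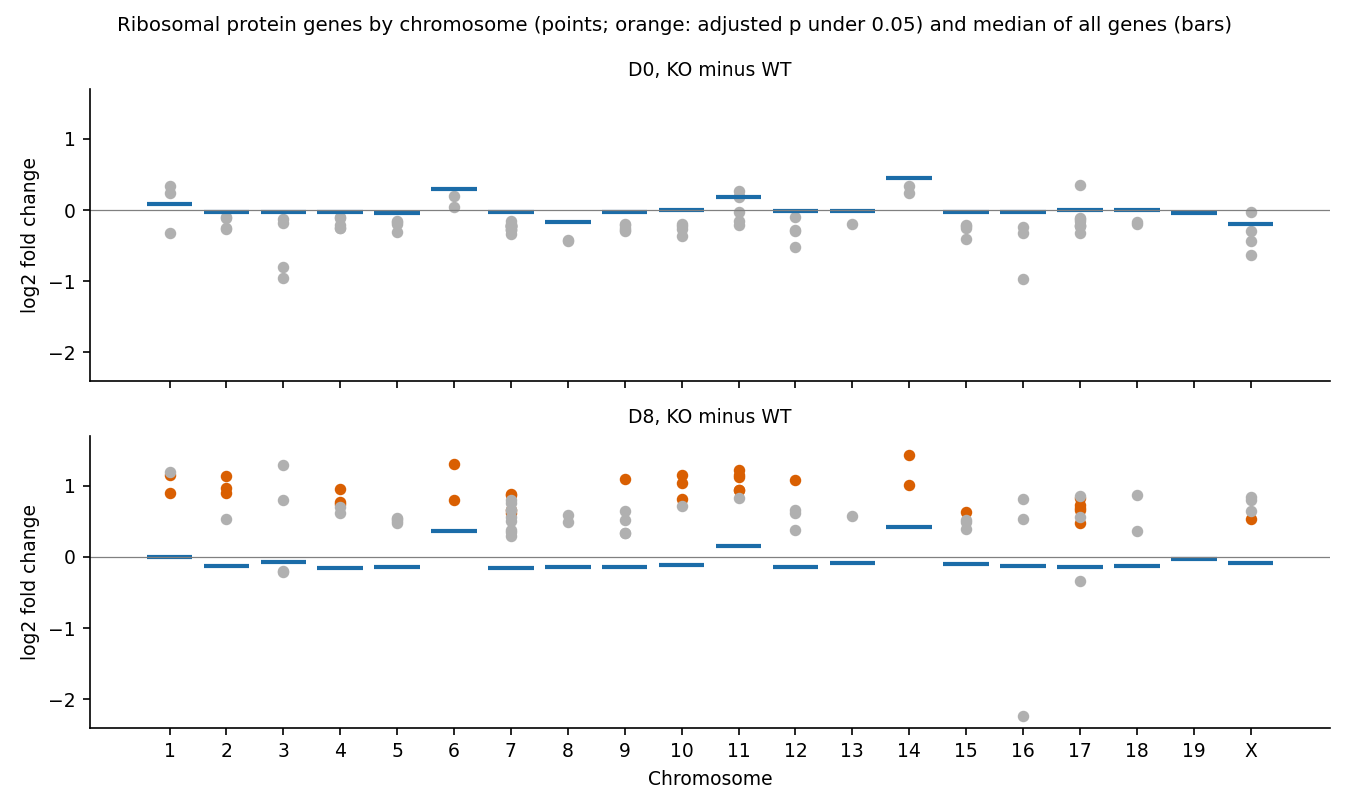
Log2 fold change of KO minus WT (y axis) for each tested ribosomal protein gene (points, orange at an adjusted p under 0.05) by chromosome (x axis), at D0 above and D8 below, with a bar at the median of all genes of the chromosome. At D8 the points lie above the bars on nearly every chromosome, and chromosomes 6, 11 and 14 have raised bars on both days.

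In the embryo the ExE was compared with the embryonic pieces at each stage. Averaged over the stages, 2 genes were higher in ExE and 0 lower of 82 (background 20.3% higher and 19.5% lower, 39.8% in all), no gene had all ExE libraries above or below all embryonic ones (background 4.62% and 4.07%), and the core had a median of 0.03 against -0.01 for all genes. Scaling by total counts alone gave 6 higher and 2 lower, and leaving out 1 library at a time moved the median of the set between -0.17 and 0.18. Both called genes are paralogs. Rpl10l stood at 14.5 and 18.9 CPM in E6.5 ExE, 15.1 and 4.32 CPM in E7.0 ExE and 1.91 and 2.67 CPM in E7.5 ExE (2.51 ± 0.58, adjusted p = 0.00289, edgeR). These libraries were above all embryonic ones of the same stage at E6.5 and E7.5 and overlapped them at E7.0. Between E6.5 and E7.5 ExE the difference of -2.86 did not pass. Rpl3l stood at 3.51 and 3.94, 2.18 and 3.24, and 1.51 and 2 CPM in ExE of the 3 stages and between 0 and 2.18 CPM in embryonic pieces (1.58 ± 0.46, adjusted p = 0.0111). Without E6.5 Epi replicate 1 the count was 1, and it was 4 without E7.0 A replicate 1, 4 without E7.0 ExE replicate 1 and 5 without E7.5 P replicate 1.

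At E6.5 no gene of the set was called between ExE and Epi by edgeR (background 3.69% higher and 5.24% lower, 8.93% in all), 1 had an unadjusted p under 0.05, and DESeq2 called 0. The median was -0.33 against 0.03 for all genes, and 40 of 82 genes had both ExE libraries below both Epi libraries (background 31.6%). With total counts alone the median of the set was -0.01, as that scaling raised the median of all genes by 0.32. It was -0.16 without ExE replicate 1 and -0.19 without Epi replicate 2. Rpl3, the large-subunit protein at the catalytic centre, stood at 1260 and 1670 CPM in ExE and 2780 and 2880 CPM in Epi, without overlap. At E7.0 no gene was called between ExE and the pieces A and P (background 10.0% higher and 8.14% lower), 2 had an unadjusted p under 0.05, DESeq2 called 0, and the median was -0.05 against -0.04 (0.17 against 0.13 with total counts alone). That median ran from -0.59 without ExE replicate 2 to 0.36 without ExE replicate 1, so its sign depended on single libraries. Leaving out replicate 1 of A, of P or of ExE gave 1, 1 and 2 calls.

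At E7.5 a few genes of the set were higher in ExE than in the embryonic pieces. Of 82 genes 6 were higher and 0 lower (background 13.4% and 7.91%, 21.3% in all), 5 had both ExE libraries above all 6 of the pieces (background 16.5%), and the median was 0.47 against -0.02, with 70 of 72 core genes positive. With total counts alone the medians were 0.24 and -0.33. With the replicate number as a block 22 were called, all higher (3757 of all genes in either direction), at a median of 0.58. The median was 0.87 without P replicate 2 of E7.5 and 0.23 without P replicate 1. Of the 6, 4 were outside the core (Rpl10l, Rpl3l, Rps19bp1 and Rps4l) and 2 in it (Rps14 and Rps2). Leaving out P replicate 2 of E7.5 gave 22 calls, and leaving out replicate 1 or replicate 2 of its ExE gave 2 and 0.

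Rps19bp1 stood at 91.9 and 232 CPM in E7.5 ExE, at 60.7 and 67.3 CPM in A, 50.2 and 52.9 CPM in AM and 44.7 and 62.3 CPM in P (1.53 ± 0.27, adjusted p = 0.000984, edgeR). Both ExE libraries were above all others, with replicate 2 far higher. Rps14, a small-subunit protein, stood at 2800 and 4290 CPM in ExE, at 1060 and 1170 CPM in A, 822 and 1530 CPM in AM and 1250 and 3870 CPM in P (1.24 ± 0.40, adjusted p = 0.0341). P replicate 2 lay within the range of ExE. Rps2 stood at 9260 and 5530 CPM in ExE, at 4190 and 1440 CPM in A, 3340 and 1220 CPM in AM and 5030 and 4420 CPM in P (1.25 ± 0.42, adjusted p = 0.0437), with replicate 2 lower than replicate 1 in every group. Rps4l stood at 176 and 175 CPM in ExE against 55.5 to 117 CPM in the pieces (1.01 ± 0.27, adjusted p = 0.0130), without overlap.

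Rpl10l (4.16 ± 1.01, adjusted p = 0.00851, edgeR) and Rpl3l (2.41 ± 0.70, adjusted p = 0.0216) had the largest values at E7.5, on 24 and 28 counts of Rpl10l and 19 and 21 counts of Rpl3l in the ExE libraries. Visceral endoderm markers summed to 13700 and 17100 CPM in E7.5 ExE and to 16.9 to 7110 CPM in the pieces, all 8 at 1 CPM or more, and their part in these values was not tested. Rpl38 (1.02), Rpl36al (0.84), Rps27l (0.86), Rpl13a (0.65), Rpl11 (0.42) and Rpl22 (0.32) did not pass, nor did the X-linked Rpl10 (0.07), Rpl36a (0.28), Rpl39 (-0.12) and Rps4x (0.45).

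**Figure D5:**
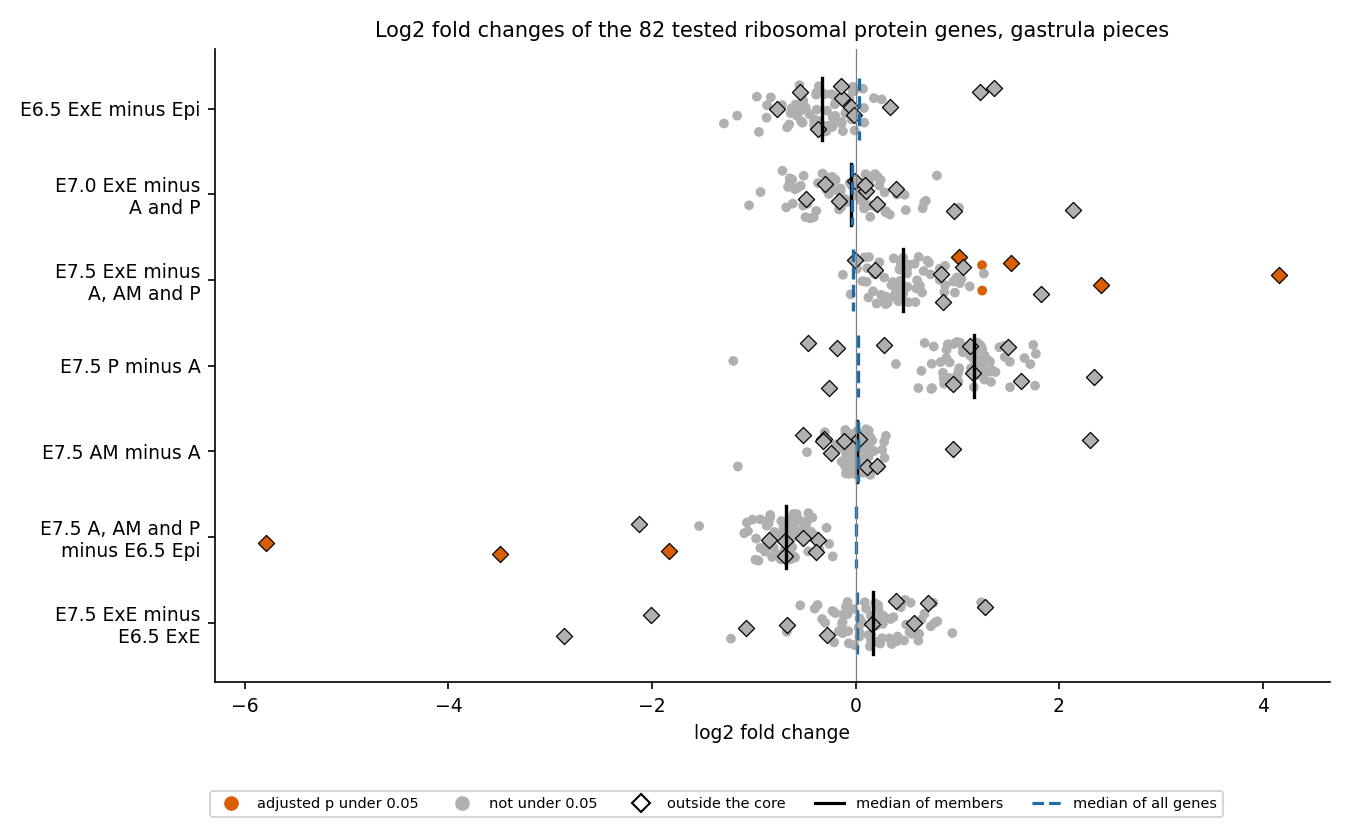
Log2 fold changes (x axis) of the 82 tested ribosomal protein genes in 7 comparisons of gastrula pieces (y axis), with symbols and lines as in the plot of the cell comparisons. The medians lie at -0.33, -0.05 and 0.47 for ExE at E6.5, E7.0 and E7.5, at 1.16 for E7.5 P minus A and at -0.68 for the E7.5 pieces minus Epi.

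In P minus A and AM minus A at E7.5 no gene of the set was called, and AM was not compared with P. P minus A had a median of 1.16 against 0.02 for all genes, with 70 of 72 core genes positive, yet edgeR called 0 (background 0.201% higher and 0.0347% lower), DESeq2 called 0, and 30 had an unadjusted p under 0.05. With total counts alone the medians were 0.48 and -0.43. The shift rests on P replicate 2: without that library the median of the set was 0.02, and without P replicate 1 it was 1.7. As an example, Rpl38 stood at 168 and 276 CPM in A and at 189 and 963 CPM in P. Both sides overlapped for most genes, and 26 of 82 had both P libraries above both of A (background 18.1%). AM minus A had a median of 0.02 (from -0.54 without AM replicate 2 to 0.36 without AM replicate 1), with 4 genes lower without overlap (background 19.8%), 0 called by edgeR (background 1.15% higher and 0.417% lower), 0 by DESeq2 and 0 at an unadjusted p under 0.05. Between E7.5 and E6.5 ExE edgeR called 0 (background 0.93% higher and 0.0417% lower, 0.972% in all), 3 had an unadjusted p under 0.05, DESeq2 called 1, and the median was 0.17 against 0.01, or -0.08 against -0.25 with total counts alone. Leaving out 1 library at a time moved that median between -0.01 (without E6.5 ExE replicate 1) and 0.36 (without E6.5 ExE replicate 2). Without E7.5 ExE replicate 1 edgeR called 1.

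For the lists that follow, the shares of all genes called higher and lower were 29.4% and 27.3% in WT between the days, 33.4% and 31.0% in KO, 10.1% and 10.4% for KO minus WT at D8, and 13.4% and 7.91% for E7.5 ExE. The 7 ribosomal proteins whose symbols fall outside the rule, such as Rpsa of the small subunit and Rplp1 of the stalk, were tested in the same fits: 6 of 7 rose in KO between the days (median 0.67), 0 were called in WT (median -0.27) and 2 of 7 were higher in KO at D8, among them Rplp1 by 0.91 ± 0.28. Of 15 translation factors with TOP messages, 7 rose and 2 fell in KO, among them Eif3e, a subunit of an initiation factor (1.15 ± 0.18), and 0 rose and 4 fell in WT, where the share that fell is close to that of all genes. Pabpc1, the poly(A)-binding protein, fell by 1.57 ± 0.19 in WT and fell by 1.17 ± 0.15 in KO.

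Genes of ribosome assembly fell in both genotypes. Of 40 biogenesis genes 37 fell in WT and 25 in KO, with 0 higher in either, at medians of -1.22 and -0.59. Nop2, a methyltransferase of 28S ribosomal RNA, fell by 2.23 ± 0.16 in WT and fell by 1.62 ± 0.12 in KO. Tcof1, which promotes transcription of ribosomal RNA genes, fell by 2.63 ± 0.20 and fell by 2.36 ± 0.16. At D8, 10 of the 40 were higher in KO and 1 lower. Of 18 regulators of ribosome supply, 2 rose and 10 fell in WT and 4 rose and 10 fell in KO. Myc fell by 3.32 ± 0.36 in WT, fell by 2.05 ± 0.26 in KO and was 1.26 ± 0.34 higher in KO at D8. Larp1, which binds TOP messages, fell by 1.6 ± 0.16 in WT and fell by 1.05 ± 0.13 in KO.

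Mitochondrial ribosomal proteins, which form a separate ribosome, had 2 of 77 higher and 36 lower in WT, 32 higher and 13 lower in KO, not far above the share of all genes that rose, and 34 higher and 0 lower in KO at D8. In E7.5 ExE 52 of 77 were higher than in the embryonic pieces and 0 lower, with a median of 0.90, and 36 higher and 1 lower averaged over the stages (all genes 20.3% and 19.5%). In the cytosolic set 6 of 82 were called in that E7.5 comparison. Of the 10 Rps6k kinases, which include the kinases of Rps6 but do not belong to the ribosome, 2 rose and 3 fell in WT and 3 rose and 4 fell in KO, near the shares of all genes. Rps6ka1 fell by 2.75 ± 0.23 and fell by 2.52 ± 0.18.

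The changes of core genes are given here by the tract at the start. In KO between the days the 25 tested core genes with it had a median of 0.61 (from -0.18 to 1.17) and the 28 without it 0.75 (from 0.16 to 1.29). At D8 the medians of KO minus WT were 0.73 and 0.66, and in WT between the days -0.25 and -0.17. The difference between these classes was not tested.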

How the data were processed

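Per the labels' protocols, embryo RNA was isolated with guanidine thiocyanate and its libraries were prepared with Nextera XT, and cell RNA was isolated with Trizol and its libraries were prepared with a NEBNext kit. The authors deposited raw counts for each gene, with embryos and cells in separate tables. CASAVA 1.8, TopHat2 2.0.9, BWA and mm10 appear in the submitters' processing notes. The sources used here do not give the counting tool, the annotation or the use of strand, so close copies and overlapping genes may share counts. Among the embryo columns, 6 that matched no sample were not used.

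Genes passing edgeR's filterByExpr (minimum count 10, total 15) were tested with edgeR 4.0.16 in R 4.3.3 (quasi-likelihood test, TMM scaling, Benjamini-Hochberg adjustment over all genes, threshold 0.05), with all libraries of a table in 1 fit and no replicate block. Background gives the percent of all tested genes that met the same criterion. The scripts were tested on simulated data. The members and gene lists were chosen with earlier results of these data known. Genes were named by rule: per comparison the 4 called genes with the largest rise and the 4 with the largest fall at an average log2 CPM of at least 3, all genes outside the core, a fixed list of disease-linked, X-linked and other core genes, the 3 of highest and lowest level, the 3 of most variable share, and up to 4 called genes of each other list by p. Rpl8, Rpl12 and Rpl15 and the sequences of Rps6 and Rps15a were chosen after their values were seen. Alternatives were other scalings and filters, DESeq2 1.42.0, a replicate block and leaving out each library. Some genes are not reported here by name.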

Additional observations from a re-analysis of the deposited data

Results flagged for a closer look

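The change between D0 and D8 differed between KO and WT in 3 of the 80 tested ribosomal protein genes by the interaction term of the edgeR fit. The difference of the log2 fold changes, KO minus WT, was 1.14 for Rpl27, 0.80 for Rpl7l1 and 1.30 for Rps27l. None of the 3 calls held when library sizes were set to the summed counts of the set, where Rpl7l1 stood at -0.028 (adjusted p = 0.962, edgeR). That scaling centres the set by construction, so it cannot test a change that its genes share. KO D8 replicate 2 was the highest library for Rpl27 and Rps27l, and for Rpl7l1 the 3 KO D8 libraries stood at 257, 261 and 241 CPM.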

How the results depend on the processing

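Of 742 pairs of a named gene and an alternative, 626 kept direction and call, 112 lost the call and 4 turned direction; 140 of 190 counts of called genes stayed within 1.5 times. All 4 turns came with library sizes set to the summed counts of the set, which by construction centres it: Rpl10 stood at -0.054 for KO D8 minus D0 and -0.16 for KO minus WT at D8, and Rpl7l1 at -0.18 for KO minus WT at D8 and -0.028 for the difference of the changes. With that scaling the called genes numbered 0 for E7.5 ExE, 1 for E7.5 pieces minus Epi, 15 for KO D8 minus D0, 3 for KO minus WT at D8 and 0 for the difference of the changes. Without a filter they numbered 6 for ExE over stages, 3 for E7.0 ExE, 14 for E7.5 ExE, 7 for E7.5 P minus A, 6 for E7.5 pieces minus Epi, 2 for E7.5 minus E6.5 ExE and 11 for the difference of the changes. With total counts they numbered 8 for ExE over stages, 1 for E7.0 ExE and 3 for E7.5 ExE. With DESeq2 they numbered 5 for ExE over stages, 1 for E7.5 minus E6.5 ExE, 57 for KO minus WT at D8 and 35 for the difference of the changes. Library sizes over the tested genes, chosen after seeing the data, gave 5 for the difference of the changes.

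With the replicate number as a block the called genes numbered 9 for ExE over stages, 22 for E7.5 ExE (all higher, against 16.1% of all genes) and 6 for E7.5 pieces minus Epi, and counts in the other comparisons stayed within 1.5 times. Same-numbered libraries correlated between -0.11 and 0.63 in embryos (36 pairs, 22 over 0.1) and between -0.04 and 0.20 in cells (13 pairs, 4 over 0.1). Not every pair passed 0.1, and the numbers were not taken to pair the samples. That criterion does not exclude an effect shared by replicate number. Embryo libraries of the same number deviated together in most pairs, and the main fits do not account for this. Leaving out 1 library at a time gave 1 to 5 for ExE over stages, 0 to 2 for E7.0 ExE, 0 to 22 for E7.5 ExE, 0 to 4 for E7.5 pieces minus Epi, 0 to 1 for E7.5 minus E6.5 ExE, 6 to 7 for WT D8 minus D0, 6 to 73 for KO minus WT at D8 and 0 to 73 for the difference of the changes. Apart from the summed scaling, the cause was not tested. With 2 or 3 libraries a group, and 0 to 9 counts for Rpl10l in WT D8, the sizes of the largest falls are imprecise.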
